A study of Mus musculus with 10 samples.

Results

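The 36 genes described here encode the machinery that shows peptides to T cells: 2 classical class I heavy chains with their light chain B2m (3 genes, called classical here), 9 non-classical class I genes, 12 genes of peptide processing and loading, 10 class II genes and 2 transactivators. They were chosen by symbol from the 45706 genes of the count table. No measured value entered the rule, but earlier results of these data were known when the members were chosen. All 36 passed the filter on low counts that left 25146 genes for testing. Counts came from RNA-sequencing of whole uterine tissue of intact adult female mice at gestation day (GD) 3.5, with 5 control Arid1a f/f uteri and 5 Ltf iCre/+ Arid1a f/f uteri. Both genotypes carry floxed alleles of Arid1a, which encodes a subunit of a chromatin remodelling complex. Only the second also carries iCre in the lactoferrin (Ltf) locus, which is active in the epithelium of the adult endometrium. The authors state that this iCre has been reported in neutrophils and other myeloid cells as well. They could not exclude a part of Arid1a deletion in such cells. The first genotype is called control here and the second, the conditional knockout, cKO. The mice had a mixed background of C57BL/6, 129S6/SvEvTac, 129P2/OlaHsd and 129S1/SvImJ, littermates were used where possible, and a portion of each uterus was taken for RNA, so that epithelial, stromal, muscle, vascular and immune cells were read together.

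Class I molecules are heavy chains paired with B2m that carry peptides cut by the proteasome in the cytosol, pumped into the endoplasmic reticulum by the TAP transporter and fitted by tapasin, calreticulin and Pdia3. They are made by nearly all cells, and their genes are switched on further by interferon and by the transactivator Nlrc5. Class II molecules are alpha and beta chains that travel with the invariant chain Cd74 to endosomes, where cathepsin S removes Cd74 and the DM proteins exchange the remaining fragment for peptide, while DO proteins hold DM back. Class II genes are controlled by Ciita and are typical of dendritic cells, macrophages and B cells, although epithelium can be induced to make them, and the endometrium holds both kinds of cell in early pregnancy.

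The libraries held 59296537 to 72702411 counts, and the counts of a member in a single uterus ran from 78 (H2-Oa) upward, against a detection floor of 3 counts that equals 0.0418 to 0.0507 CPM (counts scaled by the effective library size). Arid1a itself was at 213 ± 22.9 against 185 ± 15.9 CPM (mean ± SD, n = 5 uteri each, control first), with a log2 fold change of -0.20 (SE 0.09, edgeR adjusted p = 0.201) in the whole tissue. Ltf was at 2.22 to 11.7 CPM in control and 23.6 to 2831 CPM in cKO uteri. Of the genes tested in edgeR 2438 (9.70%) had an adjusted p under 0.05, and the median log2 fold change of all tested genes was 0.03. cKO uterus 1 had the highest summed CPM of 7 epithelial markers, at 2378, and uterus 5 that of 7 neutrophil markers, at 872, and counts without both are given.

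Of the 36 members 22 lie on chromosome 17, in the mouse H2 complex (GRCm38, GENCODE M21 annotation). Several are near copies of each other, which limits how far their reads can be told apart. Stretches of 50 bases, the read length, that also occur in transcripts of another gene made up 58.6% of H2-T22, 36.9% of H2-Q4, 35.0% of H2-Q6, 28.5% of H2-Q7, 30.9% of H2-DMb2 and 27.2% of H2-DMb1. The share was 59.3% for Psme2, which has copies elsewhere in the genome, 14.3% for H2-D1 and 8.11% for H2-K1, and it was 0 for B2m, H2-Ab1, H2-Eb1, Cd74, Ctss and Nlrc5. The strand used in counting is not given in the sources used here, so reads of H2-Q4, H2-T22, Tap2, Tapbp, Psmb8, Erap1, H2-DMa and H2-Oa cannot be told apart from those of genes that overlap their exons on the other strand. Smaller overlaps, such as that of Tap1 with Psmb9, are not listed.

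Levels per length, as CPM per kilobase of annotated exons, covered a wide range in control uteri. B2m was highest at 731 ± 74.7 (mean ± SD, n = 5), followed by the chaperones Calr at 314 ± 30.0 and Pdia3 at 254 ± 15.8, which serve all secreted proteins. The heavy chains H2-D1 at 173 ± 16.0 and H2-K1 at 156 ± 10.4 came next, in an order that depends on the length used. Cd74 led the class II genes at 132 ± 21.7. The class II chains were lower, at 56.4 for H2-Eb1, 36.9 for H2-Ab1 and 34.3 for H2-Aa, and the peptide editors lower again, at 6.30 for H2-DMb1 and 2.82 for H2-DMa. The lowest members were H2-Oa at 1.40, H2-DMb2 at 1.11, H2-Ob at 0.864 and Ciita at 0.721 CPM per kilobase. With the length of the longest transcript in place of all exons, H2-Ab1 was the highest of the chains at 78.2, before H2-Eb1 at 65.7 and H2-Aa at 40.4, and H2-K1 at 245 stood above H2-D1 at 212 CPM per kilobase. These levels of different genes rest on the annotated exon lengths and were not tested between genes.

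**Figure D1:**
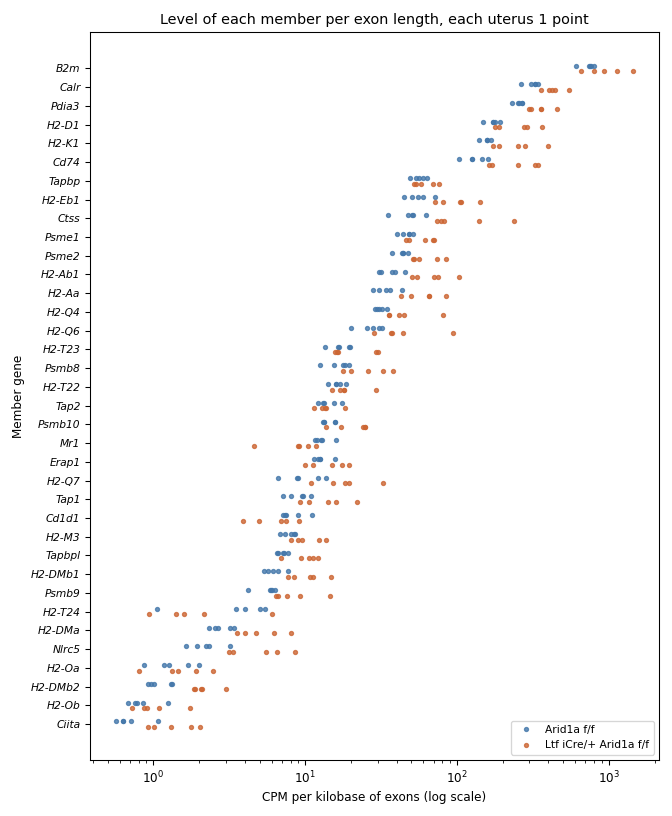
Level of each of the 36 members as CPM per kilobase of annotated exons on a log axis, with 1 point per uterus (blue, Arid1a f/f, n = 5; orange, Ltf iCre/+ Arid1a f/f (cKO), n = 5) and genes ordered by the control mean. B2m stands at the top with a control mean of 731 and Ciita at the bottom with 0.721, and for 11 of the 36 genes all orange points lie to the right of all blue ones.

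Most class II genes and both transactivators were higher in the cKO uteri, and no non-classical class I gene passed the test. Of the 36 members 16 rose and 0 fell (edgeR adjusted p under 0.05), beside 5.19% of all tested genes that rose and 4.51% that fell. At an unadjusted p under 0.05, 26 members were higher and 1, Mr1, was lower, and DESeq2 called 0 lower. The share of all tested genes at the unadjusted threshold is not given, so unadjusted counts here and below only describe the lists. The log2 fold change was above 0 for 32 of the 36, with a median of 0.57 beside 0.03 for all tested genes. By class, 8 of 10 class II genes rose (median log2 fold change 0.88), 2 of 2 transactivators (1.11), 1 of 3 classical class I genes (0.58), 5 of 12 processing and loading genes (0.50) and 0 of 9 non-classical class I genes (0.33). Every cKO uterus stood above every control uterus for 11 members, beside 5.53% of all tested genes, and below every control uterus for 0 members, beside 5.16%. Counts and medians of classes are descriptions, and the differences between classes were not tested. In bulk tissue, fewer or more cells of a type and less or more RNA per cell cannot be told apart.

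The DESeq2 Wald test called 23 of the 36 higher, beside 9.16% of the genes it tested. The edgeR count was 7 without cKO uteri 1 and 5 (H2-Aa, H2-Ab1, H2-Eb1, H2-DMa, H2-DMb2, Ctss and Nlrc5, beside 5.00% of all tested genes), 10 without uterus 4 (4.13%), 5 without control uterus 1 or control uterus 4, 4 without control uterus 2 or control uterus 3 and 10 without control uterus 5. Over all tested genes, those called higher ranged from 594 to 1296 in the fits with 1 uterus removed, beside 1305 with all 10 uteri. The calls of H2-Aa, H2-Ab1 and H2-DMb2 were the only ones present in all 10 fits made with 1 uterus removed.

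**Figure D2:**
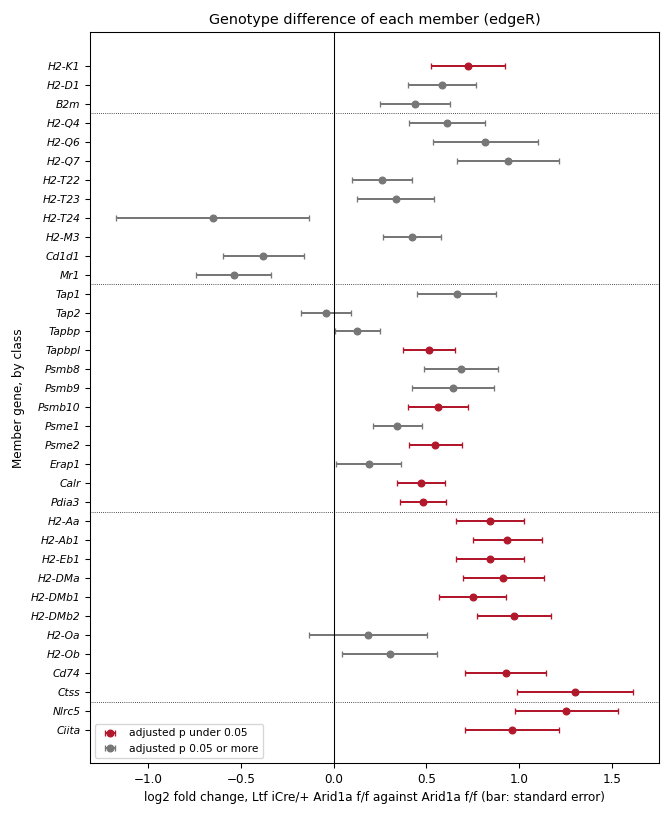
Log2 fold change of each member, Ltf iCre/+ Arid1a f/f against Arid1a f/f (5 uteri each), with bars of 1 standard error and dotted lines between the classes (top to bottom: classical class I, non-classical class I, processing and loading, class II, transactivators). Red points have an edgeR adjusted p under 0.05; 16 are red, all right of 0, and H2-T24, Mr1, Cd1d1 and Tap2 are the 4 points left of 0.

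The class II chains rose together. H2-Aa (alpha chain, chr17:34282744-34287823, minus strand) and H2-Ab1 (beta chain, chr17:34257689-34269419, plus strand) form the I-A molecule, and H2-Eb1 (chr17:34305867-34316674, plus strand) is the beta chain of I-E. Their promoters are known for a Y box bound by NF-Y, an X box bound by RFX and other factors, and the docking of Ciita on that complex. The stretch of 150 bases just before the RefSeq start is shown for 2 of these chains and, as a class II gene that did not pass the test, for H2-Ob (GRCm38.p6, chr17:34287824-34287973 minus strand, chr17:34305717-34305866 plus strand and chr17:34238755-34238904 plus strand), with the Y box letters GATTGG, on either strand, in capitals.
H2-Aa: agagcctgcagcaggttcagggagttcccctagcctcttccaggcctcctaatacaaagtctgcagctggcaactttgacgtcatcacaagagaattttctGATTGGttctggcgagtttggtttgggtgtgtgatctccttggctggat
H2-Eb1: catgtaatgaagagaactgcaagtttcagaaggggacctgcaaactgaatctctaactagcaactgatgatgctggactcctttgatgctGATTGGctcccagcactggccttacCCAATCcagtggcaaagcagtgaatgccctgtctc
H2-Ob: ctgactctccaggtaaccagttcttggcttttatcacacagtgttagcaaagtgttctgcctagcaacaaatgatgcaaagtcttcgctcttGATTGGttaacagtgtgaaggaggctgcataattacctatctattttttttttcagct
The Y box letters stand 49 to 44 bases before the start in H2-Aa, 60 to 55 before it in H2-Eb1, where the other strand holds them again 35 to 30 before it, and 58 to 53 before it in H2-Ob. In windows from 250 bases before to 50 after the start, 7 of 8 matched class II genes held the letters (all but Ctss), beside 16.1% of 32851 RefSeq promoters. H2-DMb1 was the 1 class II gene with a match to the X1 box letters CC NN G NN AC N G N TG (searched as 1 run on either strand, N for any base), which 1.25% of all promoters held. A match describes letters and not a bound site, and H2-Ob carries the same Y box letters as the chains. A search for fixed letters can miss variant sites, so a gene without a match may still hold an X box.

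H2-Ab1 stood at 78.6, 101, 81.3, 96.1 and 117 CPM in control uteri 1 to 5 and at 182, 139, 130.0, 265 and 191 CPM in cKO uteri 1 to 5. All 5 cKO uteri lay above the highest control, uterus 4 was highest, and the means were 94.7 ± 15.5 against 181 ± 53.6 CPM (mean ± SD, n = 5 uteri each, control first). That is a log2 fold change of 0.94 (SE 0.19, edgeR adjusted p = 0.0118). H2-Aa stood at 106, 136, 116, 129 and 165 CPM in control uteri 1 to 5 and at 249, 188, 162, 323 and 248 CPM in cKO uteri 1 to 5. Uterus 3 of the cKO group lay just under control uterus 5 and the other 4 above all controls, with a log2 fold change of 0.84 (SE 0.18, edgeR adjusted p = 0.0161). H2-Eb1 ran at 86.7 to 140.1 CPM in control and 139.8 to 276 CPM in cKO uteri, also with an overlap of cKO uterus 3 and control uterus 5, and had a log2 fold change of 0.84 (SE 0.18, edgeR adjusted p = 0.0174). The 3 chains kept close to a fixed proportion in each uterus, since the ratio of H2-Aa to H2-Ab1 CPM was 1.34 to 1.43 in control and 1.22 to 1.37 in cKO uteri and that of H2-Eb1 to H2-Ab1 was 1.10 to 1.21 in control and 1.04 to 1.14 in cKO uteri.

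**Figure D3:**
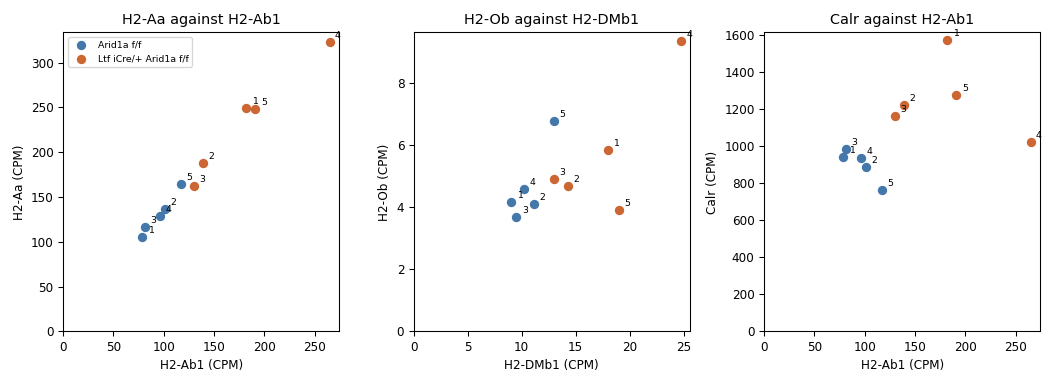
CPM of 2 genes in each of the 10 uteri (blue, Arid1a f/f; orange, Ltf iCre/+ Arid1a f/f; digits, uterus number) for H2-Aa against H2-Ab1, H2-Ob against H2-DMb1 and Calr against H2-Ab1. H2-Aa follows H2-Ab1 through both genotypes, H2-Ob in Ltf iCre/+ Arid1a f/f uterus 5 is among the lowest while H2-DMb1 is among the highest, and Calr is highest in uterus 1 where H2-Ab1 is highest in uterus 4.

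Cd74, Ctss and the DM genes rose, and the DO genes did not pass the test. Cd74 stood at 172, 244, 209.7, 211 and 268 CPM in control uteri 1 to 5 and at 424, 286, 273, 574 and 544 CPM in cKO uteri 1 to 5. No cKO uterus fell within the control range, and this invariant chain had a log2 fold change of 0.93 (SE 0.22, edgeR adjusted p = 0.0230). Ctss stood at 47.6, 70.0, 68.9, 65.0 and 84.7 CPM in control uteri 1 to 5 and at 107, 99.9, 111, 188 and 323 CPM in cKO uteri 1 to 5. The groups of this cathepsin did not overlap, uterus 5 stood far above the other 4, and the change was a log2 fold change of 1.30 (SE 0.31, edgeR adjusted p = 0.0254), or 0.91 without that uterus.

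The editor chains H2-DMa, H2-DMb1 and H2-DMb2 all passed the test. H2-DMa ran at 8.06 to 11.7 CPM in control and 12.2 to 27.8 CPM in cKO uteri, without overlap, with a log2 fold change of 0.91 (SE 0.22, edgeR adjusted p = 0.0250). H2-DMb1 ran at 9.03 to 13.0 CPM in control and 13.0 to 24.8 CPM in cKO uteri, where only the lowest cKO uterus and the highest control touched, with a log2 fold change of 0.75 (SE 0.18, edgeR adjusted p = 0.0250). H2-DMb2 was the scarcest of the 3 at 1.61 to 2.31 CPM in control and 3.21 to 5.24 CPM in cKO uteri, without overlap, with a log2 fold change of 0.97 (SE 0.20, edgeR adjusted p = 0.0135). H2-DMb1 and H2-DMb2 share stretches, so a read that lies wholly in them cannot be assigned to either gene by sequence. H2-Oa stood at 1.78, 2.38, 1.22, 1.66 and 2.81 CPM in control uteri 1 to 5 and at 2.67, 2.04, 1.86, 3.50 and 1.13 CPM in cKO uteri 1 to 5. H2-Ob stood at 4.17, 4.08, 3.67, 4.57 and 6.75 CPM in control uteri 1 to 5 and at 5.83, 4.68, 4.90, 9.32 and 3.91 CPM in cKO uteri 1 to 5. For both genes cKO uterus 4 was highest and uterus 5 among the lowest of all 10, the groups overlapped, and the log2 fold changes were 0.18 (SE 0.32, edgeR adjusted p = 0.769) and 0.30 (SE 0.26, edgeR adjusted p = 0.510). The ratio of H2-Ob to H2-DMb1 CPM was 0.367 to 0.518 in control and 0.206 to 0.378 in cKO uteri, which overlap, and the difference between the 2 genes' changes was not tested.

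Both transactivators rose. Ciita, the master regulator of class II genes, ran at 5.38 to 10.3 CPM in control and 8.75 to 19.4 CPM in cKO uteri, with a log2 fold change of 0.96 (SE 0.25, edgeR adjusted p = 0.0364). Control uterus 5, the highest control, lay above cKO uteri 2 and 3. Nlrc5 stood at 19.7, 16.4, 27.0, 13.9 and 18.9 CPM in control uteri 1 to 5 and at 46.6, 26.6, 28.4, 72.2 and 55.3 CPM in cKO uteri 1 to 5. Only cKO uterus 2 lay within the control range of this class I transactivator, just under control uterus 3, and the change was a log2 fold change of 1.26 (SE 0.28, edgeR adjusted p = 0.0181). Among the 10 fits made with 1 uterus removed, the call was present in 9 for Nlrc5, 3 for Ciita, 9 for H2-Eb1, 6 each for H2-DMa, H2-DMb1 and Cd74 and 5 for Ctss.

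Markers of several cell types also differed between the genotypes, and those of uterine epithelium, stroma and muscle were present in all 10 libraries. Of 5 leukocyte markers 3 rose, and their summed level was 150.3 to 243 CPM in control and 195 to 435 CPM in cKO uteri. For macrophages, edgeR called 0 of 9 markers (4 higher at an unadjusted p under 0.05, 2 higher by DESeq2) and the sum was 172 to 347 CPM in control and 297 to 739.8 CPM in cKO uteri. For dendritic cells edgeR called 0 of 9 higher (3 at an unadjusted p under 0.05, 2 by DESeq2), and Zbtb46 fell. The log2 fold change was above 0 for 7 of these 9 markers. Their sum was 60.3 to 67.4 CPM in control and 63.1 to 109.6 CPM in cKO uteri, highest in uterus 4. Of 7 T cell markers 3 rose (sum 24.7 to 31.2 CPM in control and 38.3 to 85.6 CPM in cKO uteri), of 5 inflammatory monocyte markers 1 rose (sum 287 to 527 CPM in control and 251 to 849 CPM in cKO uteri), and of 7 neutrophil markers 2 rose (sum 5.94 to 23.1 CPM in control and 12.3 to 872 CPM in cKO uteri). Uterus 5 set the upper end of both sums, and those of the other 4 cKO uteri reached 560.4 CPM for the monocyte and 23.1 CPM for the neutrophil markers. Uterus 5 also set the upper end for leukocyte, macrophage and B cell markers, whose sums in the other 4 cKO uteri reached 373, 409 and 15.7 CPM. Without cKO uteri 1 and 5 the calls of the monocyte marker Chil3 (edgeR adjusted p = 0.0534) and of the neutrophil markers Ly6g (0.142) and Mmp8 (0.0918) were lost. Of 6 NK cell markers edgeR, DESeq2 and an unadjusted p under 0.05 called 0 (sum 36.8 to 76.9 CPM in control and 19.9 to 70.0 CPM in cKO uteri). Of 7 B cell markers edgeR called 0 (1 higher at an unadjusted p under 0.05, 1 by DESeq2; sum 7.03 to 14.7 CPM in control and 4.65 to 31.0 CPM in cKO uteri), with Ms4a1 at 0.0979 to 0.362 CPM in control and 0.0169 to 0.738 CPM in cKO uteri, the lowest of them under the detection floor. Of 7 epithelial markers 6 rose (sum 680.2 to 892 CPM in control and 1002 to 2378 CPM in cKO uteri), while 5 of 5 endothelial markers fell (sum 669 to 936 CPM in control and 305 to 464 CPM in cKO uteri), 2 of 7 stromal markers fell (sum 6814 to 8883 CPM in control and 5799 to 9539 CPM in cKO uteri) and edgeR called 0 of 5 smooth muscle markers (1 lower at an unadjusted p under 0.05, 1 by DESeq2; sum 5834 to 10151 CPM in control and 3011 to 7909 CPM in cKO uteri). The CPM ratio of H2-Ab1 to the leukocyte gene Ptprc averaged 1.32 in control uteri, at most 1.54, and 1.81 in cKO uteri, from 1.23 to 2.67, and that of H2-Ab1 to the dendritic cell gene Itgax was 8.33 ± 2.42 and 8.92 ± 1.84 (mean ± SD, n = 5), both overlapping between genotypes. A plain sum follows its most abundant gene. In control uteri Plac8 averaged 316 of the 395 CPM of the monocyte sum, and Col1a1 3628 of the 7865 CPM of the stromal sum. The log2 fold change was above 0 for 5 of 5 monocyte and for 1 of 7 stromal markers. The part of these cell types in the higher presentation genes was not tested.

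Of the classical class I genes H2-K1 passed the test. H2-K1 (chr17:33996017-34000347, minus strand) and H2-D1 (chr17:35262730-35267499, plus strand) are the heavy chains shown to cytotoxic T cells, and B2m (chr2:122147686-122153083, plus strand) is the light chain common to all class I molecules. The 150 bases before the start are printed for H2-K1 (chr17:34000348-34000497, minus strand) with matches to the NF-kappaB letters GGG NN T N CCC in capitals, and for B2m (chr2:122147537-122147686, plus strand) with the interferon response letters GAAA NN GAAA and the Y box letters in capitals, each searched on both strands.
H2-K1: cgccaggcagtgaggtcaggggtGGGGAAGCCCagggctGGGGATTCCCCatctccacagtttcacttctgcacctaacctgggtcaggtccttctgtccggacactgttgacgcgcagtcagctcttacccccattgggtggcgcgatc
B2m: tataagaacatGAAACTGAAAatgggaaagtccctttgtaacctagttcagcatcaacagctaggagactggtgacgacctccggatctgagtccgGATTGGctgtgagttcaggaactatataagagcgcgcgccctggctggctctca
The NF-kappaB letters occurred in 10 of the 28 members with a promoter in the table, beside 5.02% of all promoters, among them H2-K1, H2-D1, H2-Q4, H2-Q6 and H2-Q7. The interferon response letters occurred in 6 of 28, beside 3.44% of all promoters, and the STAT site letters TTC NNN GAA in 3 of 28, beside 8.30%. The Y box letters occurred in 18 of 28 members and in all 3 classical class I genes, and the X1 letters in 8 of 28.

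H2-K1 stood at 409.7, 493, 465, 466 and 464 CPM in control uteri 1 to 5 and at 821, 506, 557, 1175 and 744 CPM in cKO uteri 1 to 5. The groups did not overlap, uterus 4 was highest, uteri 2 and 3 lay just above the controls, and the means were 459.7 ± 30.5 against 760.5 ± 265 CPM (mean ± SD, n = 5 uteri each, control first). The change was a log2 fold change of 0.73 (SE 0.20, edgeR adjusted p = 0.0428), and 2 of the 10 fits made with 1 uterus removed held the call. H2-D1 stood at 382, 495, 462, 442 and 445 CPM in control uteri 1 to 5 and at 748, 458, 489.7, 930.0 and 712 CPM in cKO uteri 1 to 5. cKO uteri 2 and 3 lay within the control range, and a log2 fold change of 0.58 (SE 0.18, edgeR adjusted p = 0.0657) did not pass the test. B2m ran at 520.3 to 690.1 CPM in control and 564 to 1243 CPM in cKO uteri, with uterus 2 among the controls, and a log2 fold change of 0.44 (SE 0.19, edgeR adjusted p = 0.168) did not pass it either. The ratio of H2-K1 to H2-D1 CPM was 0.997 to 1.07 in control and 1.05 to 1.26 in cKO uteri, and that of H2-K1 to B2m was 0.672 to 0.788 in control and 0.768 to 1.02 in cKO uteri, with overlaps in both.

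None of the non-classical class I genes passed edgeR's adjusted threshold, although 4 of the 9 had an unadjusted p under 0.05 with a positive and 1 with a negative change, and DESeq2 called 3 of them higher. The Qa-region genes H2-Q4, H2-Q6 and H2-Q7 had the largest positive changes. H2-Q4 ran at 75.3 to 89.8 CPM in control and 91.9 to 209 CPM in cKO uteri, without overlap, with a log2 fold change of 0.61 (SE 0.20, edgeR adjusted p = 0.0839). H2-Q6 ran at 41.9 to 66.7 CPM in control and 59.5 to 195 CPM in cKO uteri, with a log2 fold change of 0.82 (SE 0.28, edgeR adjusted p = 0.0915), and uterus 4 was more than 2 times as high as any other. H2-Q7, whose product belongs to the Qa-2 antigens, ran at 28.4 to 58.3 CPM in control and 46.5 to 139 CPM in cKO uteri, with a log2 fold change of 0.94 (SE 0.27, edgeR adjusted p = 0.0521). These 3 genes share stretches of 50 bases with each other or with further class I loci.

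The T and M region genes did not pass the test. H2-T23, which encodes the Qa-1 ligand of NK cell receptors, ran at 39.0 to 56.6 CPM in control and 45.3 to 87.5 CPM in cKO uteri, with a log2 fold change of 0.33 (SE 0.21, edgeR adjusted p = 0.349). H2-T22, a ligand of gamma delta T cells, ran at 48.2 to 63.4 CPM in control and 51.6 to 100.0 CPM in cKO uteri, with a log2 fold change of 0.26 (SE 0.16, edgeR adjusted p = 0.345). H2-M3, which presents N-formylated peptides, ran at 9.87 to 12.2 CPM in control and 11.7 to 19.9 CPM in cKO uteri, with a log2 fold change of 0.42 (SE 0.16, edgeR adjusted p = 0.111). H2-T24 stood at 2.29, 8.78, 10.9, 7.64 and 11.9 CPM in control uteri 1 to 5 and at 3.06, 2.04, 3.47, 4.72 and 13.1 CPM in cKO uteri 1 to 5. H2-T24 was low in control uterus 1 and in 4 of the 5 cKO uteri and high in uterus 5, a spread within both genotypes that left a log2 fold change of -0.65 (SE 0.52, edgeR adjusted p = 0.481).

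The presenters of lipids and metabolites had log2 fold changes below 0. Mr1, which shows vitamin B metabolites to MAIT cells, stood at 69.8, 76.3, 71.1, 77.3 and 95.0 CPM in control uteri 1 to 5 and at 27.7, 54.6, 70.7, 61.9 and 53.3 CPM in cKO uteri 1 to 5. Of the 5 cKO uteri 4 lay below all controls and the other just inside their range, with a log2 fold change of -0.54 (SE 0.20, edgeR adjusted p = 0.117), which did not pass the test. Cd1d1, which shows lipids to NKT cells, ran at 18.3 to 28.5 CPM in control and 9.97 to 23.2 CPM in cKO uteri, with a log2 fold change of -0.38 (SE 0.22, edgeR adjusted p = 0.307).

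Of the 12 peptide processing and loading genes 5 rose, namely Calr, Pdia3, Psmb10, Psme2 and Tapbpl, and none of these calls was present when any 1 control uterus was left out. The chaperones Calr and Pdia3 are part of the loading complex and also fold many other glycoproteins. Calr stood at 945, 889.6, 985, 939.5 and 762 CPM in control uteri 1 to 5 and at 1575, 1224, 1167, 1026 and 1277 CPM in cKO uteri 1 to 5. Pdia3 stood at 794, 798, 841, 838 and 718 CPM in control uteri 1 to 5 and at 1434, 1115, 964, 939 and 1126 CPM in cKO uteri 1 to 5. For both genes the groups did not overlap, uterus 1 was highest and uterus 4 lowest of the cKO group, and the changes were 0.47 (SE 0.13, edgeR adjusted p = 0.0399) for Calr and 0.48 (SE 0.12, edgeR adjusted p = 0.0334) for Pdia3 on the log2 scale. Of 8 other endoplasmic reticulum folding and trimming genes edgeR called 0, with 2 higher at an unadjusted p under 0.05 and 0 by DESeq2. The epithelial marker sum was likewise highest in uterus 1, and its part in these values was not tested.

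The immunoproteasome subunits Psmb8, Psmb9 and Psmb10 replace Psmb5, Psmb6 and Psmb7 of the standard proteasome under interferon. Psmb10 ran at 22.2 to 26.6 CPM in control and 23.5 to 42.4 CPM in cKO uteri, with a log2 fold change of 0.56 (SE 0.16, edgeR adjusted p = 0.04996), at the edge of the threshold. Psmb8 ran at 42.5 to 65.5 CPM in control and 60.4 to 127 CPM in cKO uteri, with a log2 fold change of 0.69 (SE 0.20, edgeR adjusted p = 0.0522), and Psmb9 at 15.3 to 23.2 CPM in control and 23.3 to 53.3 CPM in cKO uteri, without overlap, with a log2 fold change of 0.65 (SE 0.22, edgeR adjusted p = 0.0882). Of the standard subunits only Psmb6 passed the test, and the log2 fold changes were 0.35 (edgeR adjusted p = 0.159) for Psmb5, 0.33 (edgeR adjusted p = 0.0348, or 0.0663 without cKO uteri 1 and 5) for Psmb6 and 0.20 (edgeR adjusted p = 0.255) for Psmb7. The log2 ratio of the induced to the standard subunit was higher by 0.32 for Psmb8 to Psmb5, 0.27 for Psmb9 to Psmb6 and 0.33 for Psmb10 to Psmb7. The 3 ratios overlapped between genotypes, and exact two-sided permutation tests of 5 against 5 uteri gave p = 0.254, 0.421 and 0.0873, or 0.381, 0.421 and 0.262 after Benjamini-Hochberg adjustment over the 3 ratios, where the smallest p possible is 0.00794.

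The proteasome activator Psme2 was separate between genotypes, at 66.2 to 84.2 CPM in control and 90.1 to 149 CPM in cKO uteri, with a log2 fold change of 0.55 (SE 0.14, edgeR adjusted p = 0.0355), and its partner Psme1 ran at 88.6 to 114 CPM in control and 101 to 155 CPM in cKO uteri, with a log2 fold change of 0.34 (SE 0.13, edgeR adjusted p = 0.118). Of the TAP transporter subunits, Tap1 ran at 38.8 to 59.7 CPM in control and 51.0 to 119 CPM in cKO uteri, with a log2 fold change of 0.66 (SE 0.21, edgeR adjusted p = 0.0714), and Tap2 at 45.7 to 66.2 CPM in control and 43.2 to 68.9 CPM in cKO uteri, with a log2 fold change of -0.04 (SE 0.14, edgeR adjusted p = 0.898). The RefSeq starts of Tap1 and Psmb9 lie 225 bases apart on opposite strands. In the GENCODE M21 annotation their exons overlap, over 3.87% of Tap1 and 5.79% of Psmb9. The ratio of their CPM was 2.04 to 2.69 in control and 2.18 to 2.79 in cKO uteri. Tapbpl, which edits peptides on class I molecules, rose, at 15.3 to 18.1 CPM in control and 16.2 to 28.5 CPM in cKO uteri, with a log2 fold change of 0.51 (SE 0.14, edgeR adjusted p = 0.0431). Tapasin itself, Tapbp, ran at 178 to 231 CPM in control and 189 to 275 CPM in cKO uteri, with a log2 fold change of 0.13 (SE 0.12, edgeR adjusted p = 0.557). Erap1, the aminopeptidase that trims peptides in the endoplasmic reticulum, ran at 83.4 to 115 CPM in control and 72.6 to 142 CPM in cKO uteri, with a log2 fold change of 0.19 (SE 0.18, edgeR adjusted p = 0.552).

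Most members were highest in the same uterus. cKO uterus 4 was the highest of all 10 for 25 of the 36 members (69.4%, beside 10.3% of all tested genes), uterus 5 for 7 and uterus 1 for 2, and control uterus 1 was the lowest of all 10 for 21 (58.3%, beside 15.0%). Averaged over the class as log2 CPM minus the control mean, class II genes stood at 0.78, 0.45, 0.39, 1.32 and 0.83 in cKO uteri 1 to 5, all above the highest control at 0.37. Classical class I genes stood at 0.65, 0.01, 0.18, 1.14 and 0.67, where uterus 2 lay within the controls. Calr and Pdia3 stood at 0.83, 0.46, 0.32, 0.21 and 0.50, an order in which uterus 4 was lowest.

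**Figure D4:**
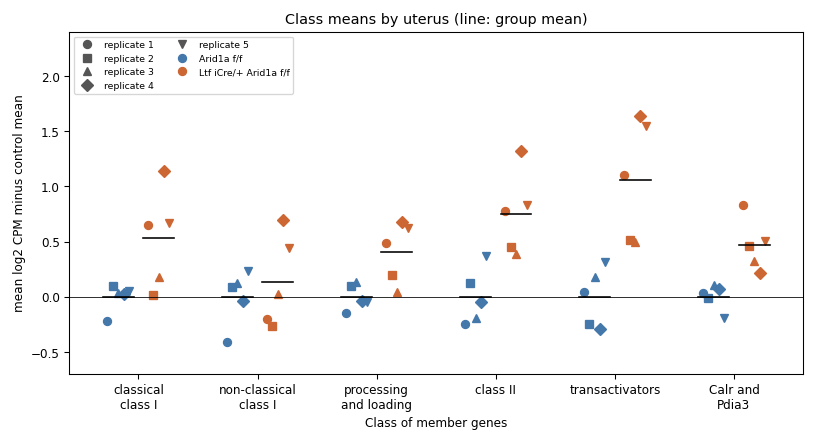
Mean over the genes of each class of log2 CPM minus the control mean, with 1 symbol per uterus (shape, uterus number; blue, Arid1a f/f; orange, Ltf iCre/+ Arid1a f/f) and lines at the group means of 5 uteri; the last column holds Calr and Pdia3 only. In the class II column all orange symbols lie above the blue ones with uterus 4 at 1.32, and in the last column uterus 4 is the lowest orange symbol at 0.21.

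**Figure D5:**
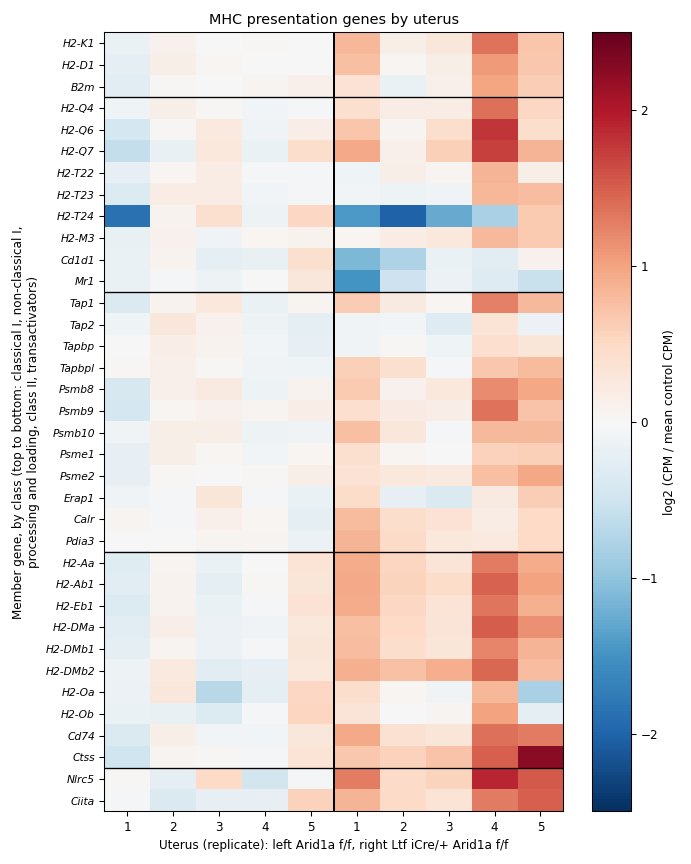
Log2 of CPM over the mean control CPM for each member (rows, grouped by class with black lines) in each uterus (columns, 5 Arid1a f/f then 5 Ltf iCre/+ Arid1a f/f). Columns 4 and 5 of the second group are the reddest, and the class II rows other than H2-Oa and H2-Ob show red in all 5 of its columns. H2-Oa lies above the control mean in 3 and H2-Ob in 4 of these columns, and H2-T24, Cd1d1 and Mr1 are blue in most of them.

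Other genes of the pathways were counted from lists made by symbol. Of 9 standard proteasome genes 4 rose, among them the core subunits Psma7 (log2 fold change 0.52, edgeR adjusted p = 0.00759) and Psma3 (0.47, adjusted p = 0.00746) and the assembly factor Pomp (0.33, adjusted p = 0.0235). Of 9 endosomal proteases and partners 1 rose, cathepsin Ctsb, at 741 to 962 CPM in control and 1061 to 1273 CPM in cKO uteri (0.47, adjusted p = 0.0158). Of 9 genes of the class II promoter complex and of class II turnover 0 passed edgeR's test, an unadjusted p of 0.05 or DESeq2, with Rfx5, the RFX subunit that binds the X box, at 50.5 to 56.5 CPM in control and 45.6 to 66.9 CPM in cKO uteri (0.07, adjusted p = 0.759).

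Of 10 interferon gamma signalling genes 1 rose and 2 fell. The receptor chain Ifngr1 rose, at 55.7 to 69.8 CPM in control and 71.4 to 169 CPM in cKO uteri, with a log2 fold change of 0.91 (SE 0.20, edgeR adjusted p = 0.0189), and the value was 0.51 without uteri 1 and 5. The kinases Jak1 and Jak2 fell by 0.43 and 0.45 on the log2 scale (edgeR adjusted p = 0.0206 and 0.0170), and without cKO uteri 1 and 5 the adjusted p of Jak1 was 0.0533. Ifng itself was scarce, at 0.156 to 0.580 CPM in control and 0.220 to 1.67 CPM in cKO uteri, with a log2 fold change of 1.31 (SE 0.51, edgeR adjusted p = 0.127). The induced factor Irf1 had a log2 fold change of 0.43 (SE 0.19, edgeR adjusted p = 0.174) and did not pass the test.

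Of 7 co-stimulatory and checkpoint genes of antigen-presenting cells 2 rose from very low levels. Pdcd1lg2, which encodes PD-L2, a ligand of the inhibitory receptor PD-1, ran at 0.144 to 0.204 CPM in control and 0.314 to 0.926 CPM in cKO uteri (edgeR adjusted p = 0.00956), and Tnfsf4, the OX40 ligand, at 0 to 0.0574 CPM in control and 0.0654 to 0.575 CPM in cKO uteri (edgeR adjusted p = 0.0228), where control libraries were at or near the detection floor. Of 10 tested further class I loci 3 rose and 1 fell. H2-Q10 ran at 0.376 to 0.713 CPM in control and 0.896 to 2.55 CPM in cKO uteri, with a log2 fold change of 1.57 (SE 0.32, edgeR adjusted p = 0.0124). It shares stretches of 50 bases with H2-Q7. Fcgrt, the neonatal Fc receptor, which also pairs with B2m, fell by 0.52 on the log2 scale, at 69.3 to 96.6 CPM in control and 47.5 to 64.7 CPM in cKO uteri (edgeR adjusted p = 0.0175).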

How the data were processed

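The deposited table holds raw counts of reads per gene, which the authors made from paired 50-base reads of poly(A) RNA libraries. The reads were trimmed with cutadapt 1.18 and Trim Galore 0.6.4, checked with FastQC 0.11.9 and aligned to GRCm38 with STAR 2.7.3a. The annotation release and strand setting are not given in the sources used here. Symbols came from GENCODE M21 (45143 of 45706 IDs matched), and promoters from RefSeq on GRCm38.p6 (28 of 36 members matched, not H2-T24, Cd1d1, Tap2, Tapbpl, H2-Ab1, Cd74, Nlrc5 and Ciita).

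The 10 uteri were grouped by the genotype in the labels. Genes averaging 1 count or more in a library entered edgeR 4.0.16 (TMM, quasi-likelihood F test, Benjamini-Hochberg over 25146 genes), and a gene was called at an adjusted p under 0.05. SE is the log2 fold change over the root of F, and p-values measure the spread between these uteri. CPM used TMM library sizes. The 3 proteasome ratios were tested by exact permutation on log2 CPM (prior count 2). On simulated data of the same design edgeR recovered 101 of 197 changed genes among 24653 tested and called 2 unchanged ones. Whether these numbers carry over to the measured counts, where 2438 genes were called, was not tested. The alternatives were DESeq2 1.42.0, other scalings and filters, a replicate block, each uterus left out, and a pair of uteri left out together. All 36 members are named, with other pathway genes where the call held and the genotypes did not overlap (at most 3 per list, Tnfsf4 without a fold) and a few named regardless (Arid1a, Ltf, Psmb5, Psmb6, Psmb7, Ifng, Irf1, Rfx5). Zbtb46, Chil3 and Mmp8 were named after their values were seen. Ms4a1, Ptprc, Itgax and Ly6g came from a planned list of defining markers and were picked from it with their values known. Adgre1, Csf1r, Cd209a, Cd3e and Epcam of that list enter only the counts and sums. A pair of genes of the other lists is not reported here. The members and lists were chosen with earlier results of these data known. The detection floors cover counting error only. The same-numbered uteri of the 2 genotypes did not deviate together, and no 2 libraries of a genotype agreed within sampling noise.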

Additional observations from a re-analysis of the deposited data

Results flagged for a closer look

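Of 78 groups of 5 uteri, covering the members and the proteasome ratios, 8 had 1 uterus far from the other 4 by Dixon's criterion, where chance flags about 1 in 20 groups, or 3.9 here. In cKO uterus 4, H2-Q4 was at 209 CPM beside 91.9 to 116 in the other 4, H2-Q6 at 195 beside 59.5 to 91.2, H2-T22 at 100.0 beside 51.6 to 61.9 and H2-DMb2 at 5.24 beside 3.21 to 3.65. In cKO uterus 5, H2-T24 was at 13.1 CPM beside 2.04 to 4.72 in the other 4. Among the controls, Psmb9 was low in uterus 1 at 15.3 CPM beside 21.4 to 23.2, Erap1 was high in uterus 3 at 115 beside 83.4 to 90.6, and Ciita was high in uterus 5 at 10.3 beside 5.38 to 6.76.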

How the results depend on the processing

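Across all settings 0 members were called lower. Under a replicate block (the same-numbered uteri correlated at -0.0529 to 0.128 and 2 of 5 pairs had their own number as best partner, so the block is an alternative only) 9 members were called higher, 0 classical class I, 1 processing and loading and 7 class II genes, with 1704 genes over the whole table. The block lost the calls of H2-K1, Tapbpl, Psmb10, Calr, Pdia3, H2-DMb2 and Nlrc5 and left the 3 proteasome ratios uncalled. DESeq2 called 4062 genes in all, and 2 classical class I, 3 non-classical and 8 processing and loading genes. edgeR's filterByExpr called 1 non-classical gene. Without cKO uteri 1 and 5 together, 7 members, 0 classical class I and 0 processing and loading genes were called, Tap2 turned to a log2 fold change of 0.012 and Erap1 to -0.094.

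With 1 uterus removed at a time, the genes called ranged from 1204 to 2381, members called higher from 4 to 18, classical class I from 0 to 2, non-classical from 0 to 1, processing and loading from 0 to 6, class II from 3 to 8 (3 without control uterus 3, 4 without control uterus 1, 2 or 4) and members without overlap between genotypes from 11 to 17. The count of all tested genes without overlap is not given for these fits, and fewer uteri separate more readily. The log2 fold change of Tap2 ranged from -0.15 to 0.037, above 0 without control uterus 2 or cKO uterus 3, and that of H2-Oa from -0.035 (without cKO uterus 4) to 0.35. Psmb10 lost its call with DESeq2 size factors and with no filter. The cause of these shifts was not tested.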
